A study of Mus musculus with 18 samples.

Results

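The proteasome is the protease that breaks down proteins tagged with ubiquitin. Its genes were found by symbol in the liver RNA table, as every protein-coding mouse gene named Psma, Psmb, Psmc, Psmd, Psme or Psmg plus a number, without the immunoproteasome genes Psmb8, Psmb9 and Psmb10. This gave 44 of the 24040 genes in the table. Of these, 42 were tested, having reached a level of 1 RPKM in 3 or more of the 18 libraries. RPKM are reads per kilobase of transcript, scaled to the depth of the library, so levels can be compared between genes per length. The other 2 are Psma8, the testis form of an alpha subunit, with a mean of 0.126 RPKM, and Psmb11, the thymus form of a catalytic subunit, which was listed at 0 in all libraries.

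The 18 libraries were made from polyA RNA of whole liver of wild-type C57BL/6J mice, with 3 libraries in each of 6 groups. On the LF diet these are LF alone, LF+CR and LF+Ex, and on the HF diet HF alone, HF+CR and HF+Ex. All groups share the strain and the wild-type genotype, a start of treatment at 5 weeks of age and a collection of liver at 62 weeks. The abbreviations are all that the labels give: LF and HF are read as low-fat and high-fat diet, CR as caloric restriction and Ex as exercise. Sex is not given, and nothing says that each library is a separate animal, so every p-value measures only the spread between these libraries. In whole liver, fewer cells of a type and less RNA per cell cannot be told apart.

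The core particle is a barrel of stacked rings. Alpha subunits form the outer rings and gate the entrance, and beta subunits form the inner rings, where Psmb6, Psmb7 and Psmb5 carry the caspase-like, trypsin-like and chymotrypsin-like active sites. The 19S cap binds ubiquitin chains, removes them and feeds the unfolded protein into the barrel with a ring of ATPases, while dedicated chaperones, absent from the finished particle, put the rings together. In liver the system disposes of damaged, short-lived and regulatory proteins.

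Promoter sequences are given for 4 genes that the results below turn on: Psmd14, the deubiquitinase of the cap, the alpha subunit Psma3 and the chaperone Psmd9, each of which differed between diets, and the ATPase Psmc6, which came nearest to a call after Psmg2 and Psmd14 in HF+Ex against LF+Ex. Each run is the 250 bases before a listed RefSeq start on GRCm38.p6, on the plus strand, 5′ to 3′. For Psma3, annotated from 70969283 to 70995877, the window lies inside the gene and not before its first base. Capitals mark matches to 4 motifs searched on both strands: TGACNNNGC, the antioxidant response core bound by Nfe2l1 and Nfe2l2 with small Maf proteins, the CCAAT box bound by NF-Y, the ETS motif CCGGAAG, and the E-box CACGTG.
Psmd14, chr2:61711444-61711693: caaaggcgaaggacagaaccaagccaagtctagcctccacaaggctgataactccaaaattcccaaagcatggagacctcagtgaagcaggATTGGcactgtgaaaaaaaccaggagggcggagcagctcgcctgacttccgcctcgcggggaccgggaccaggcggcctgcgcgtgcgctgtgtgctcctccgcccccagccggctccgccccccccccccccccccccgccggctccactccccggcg
Psma3, chr12:70974373-70974622: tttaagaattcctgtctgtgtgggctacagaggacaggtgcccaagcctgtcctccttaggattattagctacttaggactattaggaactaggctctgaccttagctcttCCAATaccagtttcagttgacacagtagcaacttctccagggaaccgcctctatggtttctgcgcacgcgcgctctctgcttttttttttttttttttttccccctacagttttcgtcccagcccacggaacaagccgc
Psmd9, chr5:123227940-123228189: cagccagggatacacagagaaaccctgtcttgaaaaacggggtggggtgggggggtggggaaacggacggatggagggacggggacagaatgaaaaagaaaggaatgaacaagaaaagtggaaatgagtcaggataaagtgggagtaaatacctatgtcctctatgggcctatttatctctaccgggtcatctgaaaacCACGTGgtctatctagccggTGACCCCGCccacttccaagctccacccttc
Psmc6, chr14:45329574-45329823: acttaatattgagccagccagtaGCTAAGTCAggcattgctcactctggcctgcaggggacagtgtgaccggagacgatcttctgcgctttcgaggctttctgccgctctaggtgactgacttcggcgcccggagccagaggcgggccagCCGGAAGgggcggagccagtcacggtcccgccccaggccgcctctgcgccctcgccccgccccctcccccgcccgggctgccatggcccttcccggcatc

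The Psmd14 window holds a CCAAT box on the reverse strand, 159 to 155 bases before the start. The Psma3 window holds one on the forward strand, 139 to 135 bases before the listed start that follows the window. In Psmd9 an E-box lies 51 to 46 bases and an antioxidant response core 31 to 23 bases before the start. In Psmc6 an antioxidant response core on the reverse strand lies 227 to 219 bases and an ETS motif 100 to 94 bases before the start. Promoters were listed for 36 of the 44 genes, and none was listed for Psma8, Psmb1, Psmb2, Psmb7, Psmc3, Psmd3, Psmd7 and Psmg2. The ETS motif was found in 12 of the 36 genes, or 33.3%, against 7.83% of the 27025 genes with a listed promoter. The 27025 include genes that were not tested here, and no comparison with the tested genes alone was made. Those 12 were Psma6, Psmc1, Psmc2, Psmc6, Psmd2, Psmd4, Psmd6, Psmd11, Psmd12, Psme3, Psme4 and Psmg1. The shares for the other motifs lay closer to those of all genes, with 13 genes or 36.1% against 37.5% for the CCAAT box, 5 genes or 13.9% against 11.5% for the antioxidant response core, and 3 genes or 8.33% against 6.86% for the E-box. These are matches of letters at any listed start of a gene and do not show binding.

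Among the genes found by symbol, the levels followed the place in the particle. The beta ring was the most abundant class, with a median over its 7 subunits of 115 RPKM, from 83.7 for Psmb5 to 157 for Psmb3. The other beta subunits, Psmb6, Psmb7, Psmb2, Psmb1 and Psmb4, lay at 108, 114, 115, 119 and 135 RPKM. The alpha ring had a median of 70.3 RPKM, with Psma5 at 51.1, Psma1 at 63.1, Psma3 at 64.7, Psma2 at 70.3, Psma4 at 96.5, Psma6 at 113 and Psma7 at 120 RPKM. The subunits of a ring are needed in equal numbers, while the highest level was 2.35 times the lowest among the alpha genes and 1.88 times among the beta genes.

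In the 19S cap the 6 ATPases lay at 41.7 RPKM for Psmc6, 44.5 for Psmc2, 47.7 for Psmc5, 54.3 for Psmc4, 64.6 for Psmc1 and 76.0 for Psmc3. The highest was 1.82 times the lowest. The 11 non-ATPase subunits among the 42 genes had a median of 41.5 RPKM. Of these 11 the lowest was Psmd14 at 25.1 and the highest the ubiquitin receptor Psmd4 at 96.2. Between them came Psmd12 at 34.9, Psmd13 at 35.6, Psmd11 at 36.1, Psmd6 at 40.2, Psmd1 at 41.5, Psmd7 at 46.2, Psmd3 at 48.7, the scaffold Psmd2 at 58.0 and Psmd8 at 69.8 RPKM. The cap subunits Sem1 and Adrm1 lack such a symbol and are not among the 42. Over the 18 libraries Sem1 ran from 159 to 375 RPKM, above Psmd4, and Adrm1 from 43.5 to 74.7.

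Among the alternative activators, Psme1 and Psme2, the partners of the interferon-inducible PA28 ring, had means of 92.0 and 43.1 RPKM, while the nuclear activator Psme3 and the large single-chain activator Psme4 had 19.1 and 16.5 RPKM. Among the genes found by symbol, the chaperones were lowest. This does not hold for Pomp, the maturation chaperone of the core, which lacks such a symbol. Pomp ran from 87.8 RPKM in LF 1 to 136 in HF 2, in the range of the ring subunits. The core chaperones Psmg1 and Psmg2, which work as a pair on the alpha ring, lay at 12.6 and 6.37 RPKM, and the second pair, Psmg3 and Psmg4, at 11.8 and 11.9 RPKM. Psmg4 has a second RefSeq row with a mean of 7.42 RPKM, which is not counted in its level. The chaperones of the cap's base, Psmd5, Psmd9 and Psmd10, lay at 13.2, 12.9 and 4.81 RPKM.

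**Figure D1:**
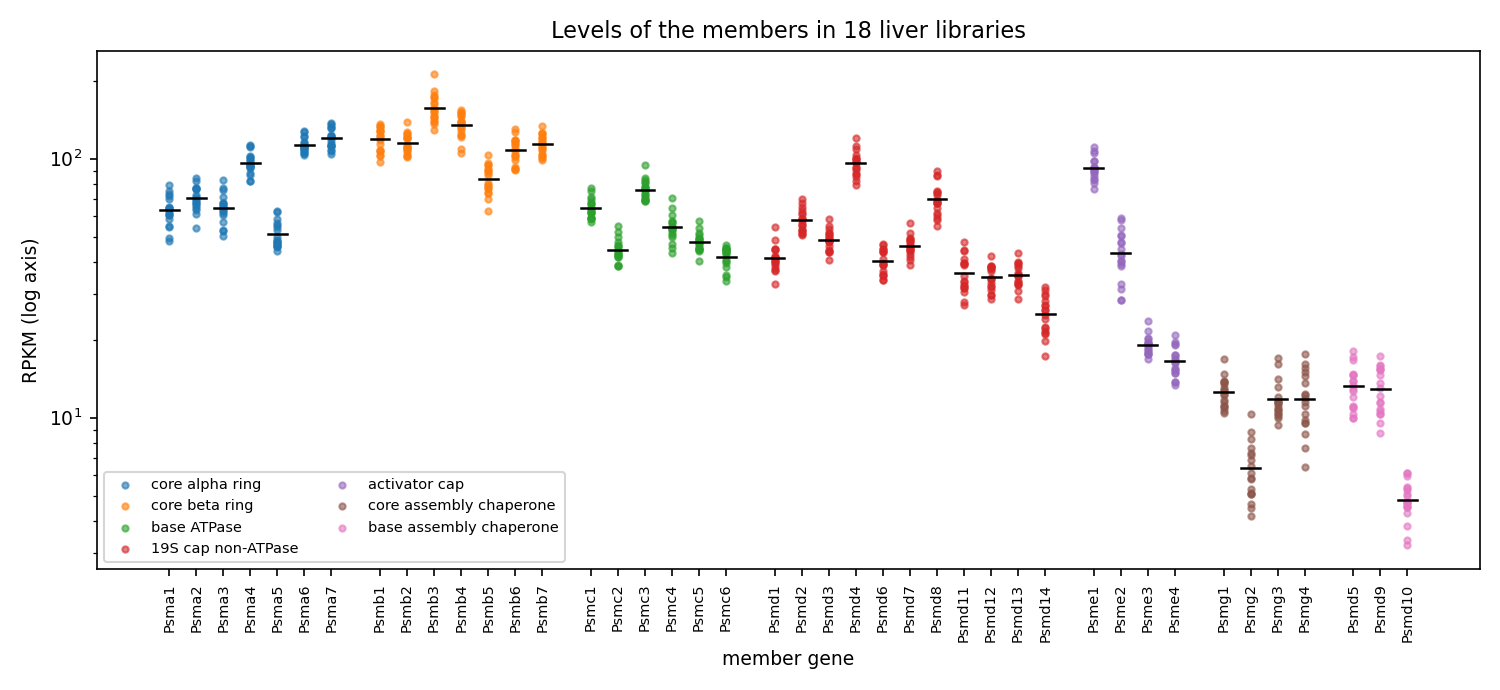
RPKM on a log axis for the 42 tested genes, coloured by class, with 1 point for each of 18 libraries and a black line at the mean. The beta ring lies highest, with a median of 115 RPKM, and Psmg2 and Psmd10 have the lowest means, 6.37 and 4.81 RPKM.

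The order of the genes was nearly the same in every group. Between any 2 of the 6 groups, Spearman's rho over the 42 genes was 0.984 to 0.996, a description of genes measured in libraries of 1 kind and not a test. Neighbours within a ring or the ATPase ring often lay closer than the spread of either, as did Psmb2 at 115 ± 9.97 and Psmb7 at 114 ± 10.2 RPKM (SD, n = 18 libraries).

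The subunits also varied little from library to library. The coefficient of variation over the 18 libraries had a median of 10.9% over the 42 genes, against 20.1% for all 10358 genes tested and 16.8% for the 5338 genes in the same range of levels. That range runs from 4.81 to 157 RPKM, and levels within it were not matched. The core and 19S subunits start at 25.1 RPKM. The coefficient was lowest for Psma6, at 6.46%. All 31 core and 19S subunits among the 42 stayed below the median of all genes, with Psmd14 the highest at 16.7%. The 4 genes above it were Psmg2 at 26.0%, Psmg4 at 25.9%, Psme2 at 21.5% and Psmd9 at 20.1%, 3 of them chaperones. Cytosolic ribosomal proteins, another set of genes for a large particle, had a median of 18.9% over 75 genes. The variation is that of single estimates and includes counting error, which weighs more on genes with few reads, such as Psmg4 and Psmg2.

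What variation there was ran partly together. The mean Pearson correlation of a gene with the other 41 over the 18 libraries was 0.54 for Psmc4 and for Psmc1, the highest, and 0.04 for Psmd9, the lowest. The median of these values was 0.48 for the ATPases, 0.47 for the other 19S subunits, 0.44 for the alpha ring, 0.40 for the beta ring, 0.36 for the activators, 0.25 for the core chaperones and 0.205 for the base chaperones. These libraries share a scaling, so genes also move together through it. In LF 2 the 42 genes lay on average 0.21 above their 18-library mean of log2(RPKM + 1), and 15 of them had their highest value there. In LF+Ex 3 they lay 0.20 below, with 12 at their lowest. The median of all genes tested moved the same way in both, by 0.15 and -0.17.

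**Figure D2:**
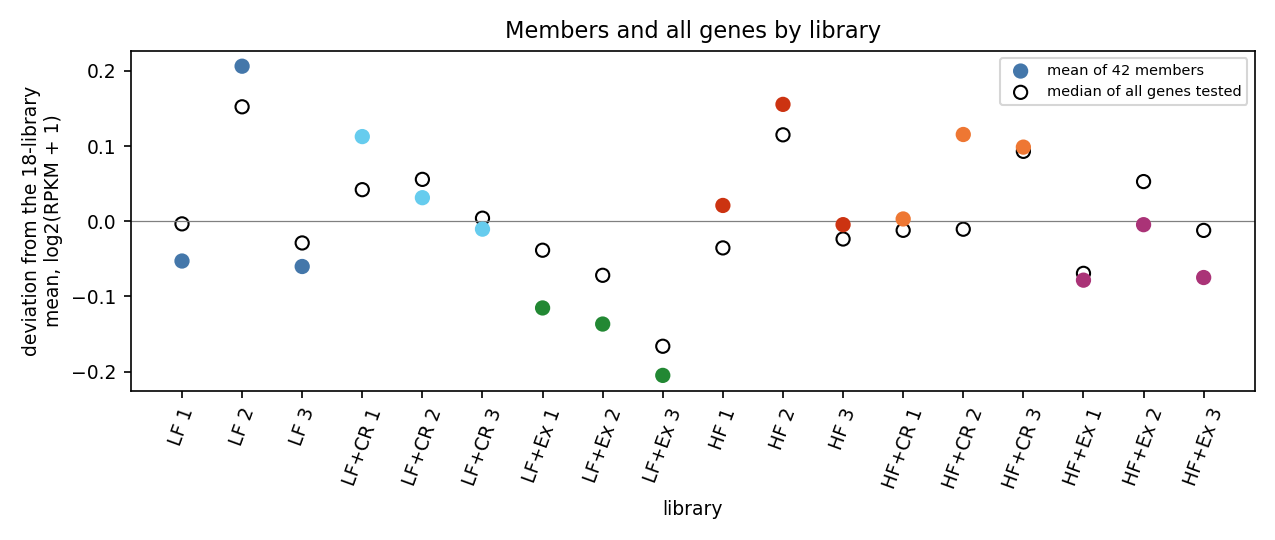
Deviation from the 18-library mean of log2(RPKM + 1) for each library, as the mean of the 42 proteasome genes (filled, coloured by group) and the median of all genes tested (open). LF 2, at 0.21 for the proteasome genes, and LF+Ex 3, at -0.20, lie farthest from 0, and the open points lie on the same side in both.

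Hepatocyte markers were high in every library, with 7 genes summing to 41912 to 56791 RPKM. Markers of other cells set some libraries apart. Pancreatic acinar genes summed to 1533 RPKM in LF+CR 1, 302 in HF+CR 1, 38.6 in HF+CR 2 and 34.9 in LF+Ex 1, and to at most 12.7 elsewhere. Bile duct genes summed to 147 RPKM in LF 2 and 166 in HF+CR 3, and to at most 74.6 elsewhere. Each result below was also computed without LF+CR 1, HF+CR 1 and LF+Ex 1, called the pancreatic libraries here, and without LF 2 and HF+CR 3. HF+CR 2 was kept in both. RPKM sums over all rows ran from 512495 to 589042, and between 9071 and 9999 genes per library reached 1 RPKM. The read depth is unknown. At a rough depth read from the steps among the lowest values, the mean level of Psmg4 would rest on about 177 reads and that of Psmb1 on about 5620.

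The diets were compared first without a further treatment. In HF against LF, none of the 42 genes passed limma's test at an adjusted p under 0.05, where 0.405% of all 10358 genes did. The median difference in log2(RPKM + 1) was 0.00, with 21 genes higher and 21 lower, against -0.02 for all genes, and median-of-ratios scaling made it 26 higher. At an unadjusted p under 0.05 there were 4 genes, or 9.52%, against 16.8% of all genes. The 3 with the smallest p were Psmg2, with a difference of 0.29 ± 0.11 (SE, adjusted p = 0.208), Psmd10, with 0.38 ± 0.16 (adjusted p = 0.252), and Psme2, with 0.45 ± 0.20 (adjusted p = 0.273). The 95% interval of the difference lay within ±0.5 for 37 of the 42, and the widest reached -0.61 and 0.88.

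The catalytic subunits show how close the groups were. Psmb6 stood at 116, 127 and 110 RPKM in LF, 130, 118 and 113 in LF+CR, and 101, 117 and 91.4 in LF+Ex. On the HF diet it stood at 114, 104 and 91.3 in HF, 93.2, 118 and 107 in HF+CR, and 104, 98.8 and 90.6 in HF+Ex. HF overlapped LF, and HF+Ex overlapped LF+Ex, with differences of -0.19 (adjusted p = 0.437) and -0.07 (adjusted p = 0.768).

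Psmb7 stood at 98.5, 126 and 116 RPKM in LF, 125, 126 and 109 in LF+CR, 111, 104 and 100 in LF+Ex, 116, 120 and 104 in HF, 119, 134 and 121 in HF+CR, and 108, 112 and 101 in HF+Ex. Psmb5 stood at 96.2, 104 and 73.6 RPKM in LF, 94.5, 80.4 and 79.1 in LF+CR, 76.5, 76.9 and 69.7 in LF+Ex, 86.6, 94.6 and 73.5 in HF, 62.9, 89.5 and 91.0 in HF+CR, and 88.0, 90.6 and 78.3 in HF+Ex. None of the catalytic genes passed the test in any comparison, and for Psmb7 all differences, interactions included, lay between -0.10 and 0.14, with intervals inside -0.32 and 0.37.

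The immunoproteasome subunits replace these under interferon and are shown for their levels beside them. Psmb9, which takes the place of Psmb6, stood at 17.4, 11.3 and 11.2 RPKM in LF, 4.93, 3.61 and 9.43 in LF+CR, 10.8, 13.9 and 16.9 in LF+Ex, 35.1, 47.9 and 17.5 in HF, 15.3, 19 and 19.4 in HF+CR, and 38.0, 32.5 and 35.7 in HF+Ex. Its ratio to Psmb6 was 5.06% ± 2.86 in LF+CR and 16.8% ± 1.11 in HF+CR, and 13.7% ± 4.18 in LF+Ex and 36.3% ± 3.26 in HF+Ex (SD, n = 3). Psmb9 rose by 1.51 ± 0.32 in HF+CR against LF+CR (adjusted p = 0.00824) and by 1.31 ± 0.32 in HF+Ex against LF+Ex (adjusted p = 0.0322), where Psmb6 had differences of -0.18 and -0.07. Whether the difference of Psmb9 exceeds that of Psmb6 was not tested. Psmb8 and Psmb10, the counterparts of Psmb5 and Psmb7, were not called in either comparison, with Psmb8 at 0.37 ± 0.23 and 0.40 ± 0.23 and Psmb10 at -0.12 ± 0.25 and 0.50 ± 0.25.

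**Figure D3:**
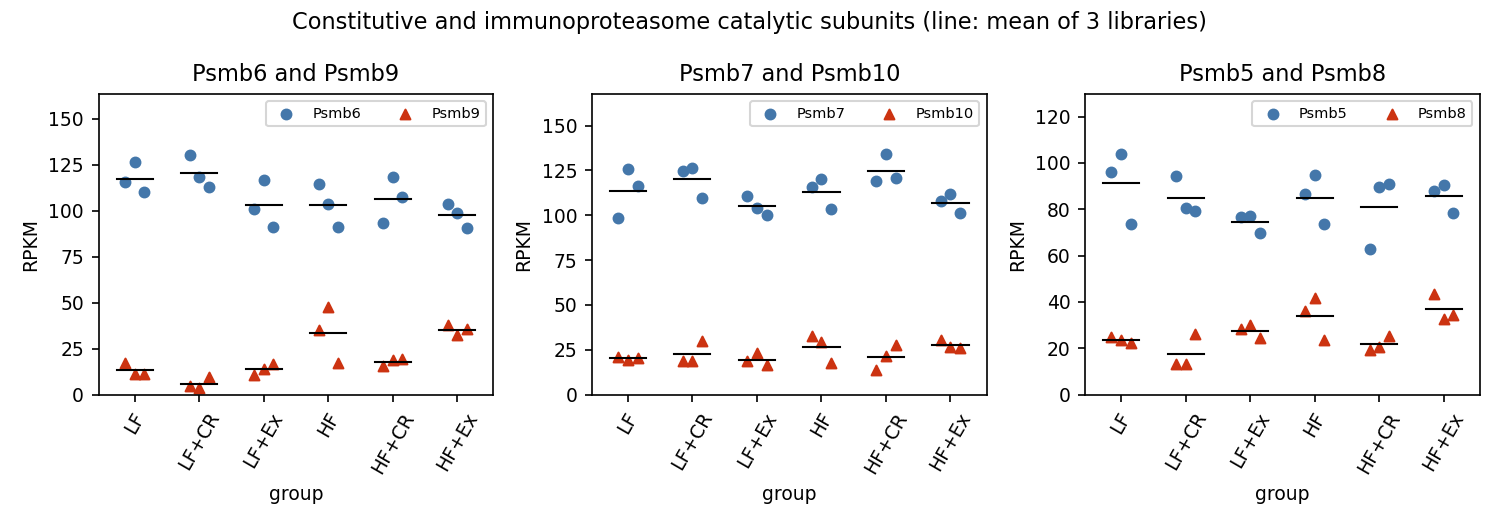
RPKM of each constitutive catalytic subunit (circles) and its immunoproteasome counterpart (triangles) in the 6 groups, 1 point per library and a line at the mean of 3. The circles lie between 62.9 and 134 RPKM in all groups, while Psmb9 ranges from 3.61 to 47.9 RPKM.

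Psme1 stood at 92.3, 107 and 92.4 RPKM in LF, 98.2, 90.3 and 105 in LF+CR, 82.9, 85.9 and 76.5 in LF+Ex, 92.5, 111 and 88.6 in HF, 80.3, 91.8 and 90.6 in HF+CR, and 98.1, 83.1 and 88.4 in HF+Ex. Its partner Psme2 was more variable, at 28.5, 50.4 and 31.5 RPKM in LF, 40.3, 59.2 and 47.7 in LF+CR, 32.9, 38.4 and 28.5 in LF+Ex, 50.7, 57.9 and 40.3 in HF, 43.0, 39.2 and 47.2 in HF+CR, and 54.1, 44.9 and 42 in HF+Ex. The second LF value, from the library rich in bile duct markers, lies above all HF+CR values and apart from the other 2 of its group. No activator passed the test in these comparisons. Psme2 has a second RefSeq row with a mean of 16.6 RPKM, and Psme1 overlaps Emc9 by 9 bases.

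Under caloric restriction the diets differed in 2 proteasome genes. In HF+CR against LF+CR the core chaperone Psmg2 and the cap deubiquitinase Psmd14 were higher, and no gene was lower. That is 2 of 42, or 4.76%, where 9.77% of all genes were called and 4.7% were called higher, so the count is not above the background. At an unadjusted p under 0.05 there were 7 of 42, or 16.7%, against 26.3%.

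Psmg2 stood at 8.27, 8.81 and 10.3 RPKM in HF+CR and at 5.84, 4.65 and 5.09 in LF+CR. It stood at 7.28, 7.67 and 6.53 in HF+Ex, 4.49, 5.29 and 4.19 in LF+Ex, 6.87, 7.19 and 6.14 in HF, and 5.80, 5.14 and 5.08 in LF. All 9 libraries on the HF diet lay above all 9 on the LF diet, with means of 7.67 ± 1.29 and 5.06 ± 0.555 RPKM (SD, n = 9). The difference in log2(RPKM + 1) between HF+CR and LF+CR was 0.71 ± 0.11 (adjusted p = 0.00115). This is a 1.63-fold difference of RPKM + 1, which understates the fold of RPKM at such low levels.

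Psmd14 stood at 30.1, 31.9 and 31.1 RPKM in HF+CR and at 21.6, 21.3 and 22.1 in LF+CR. It stood at 25.9, 27.0 and 27.1 in HF+Ex, 21.0, 17.3 and 19.7 in LF+Ex, 24.0, 28.3 and 26.1 in HF, and 22.3, 29.5 and 24.9 in LF. HF+CR lay above every other library, and the untreated groups overlapped. The difference between HF+CR and LF+CR was 0.50 ± 0.10 (adjusted p = 0.00657), and without the pancreatic libraries it was 0.52 with an adjusted p of 0.0856, while Psmg2 was still called. In that fit 131 of all genes were called, against 1012 with all libraries. No gene that overlaps Psmg2, on chromosome 18, or Psmd14, on chromosome 2 from 61711694 to 61800376, is annotated in RefSeq.

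Other genes came near the threshold in this comparison. The cap scaffold Psmd2 had a difference of 0.27 (adjusted p = 0.0729) and Psma3 of 0.27 (adjusted p = 0.0873), and both were higher in every HF+CR library than in every LF+CR library. Without LF 2, a library of neither group that enters the shared estimate of spread, 4 of the 42 genes were called, Psmd2 and Psma5 joining the pair. Of all genes 1133 were then called, against 1012 with all libraries. The other core chaperones did not follow Psmg2 past the test, with differences of -0.22 for its partner Psmg1, 0.10 for Psmg3 and 0.20 for Psmg4. The ATPases ran from -0.15 for Psmc5 to 0.16 for Psmc2.

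The same 2 genes were called in HF+Ex against LF+Ex, where 5.15% of all genes were called, 4.13% higher and 1.01% lower. At an unadjusted p under 0.05 there were again 7 of 42, or 16.7%, against 22.2%. Psmg2 differed by 0.53 ± 0.11 (adjusted p = 0.0208) and Psmd14 by 0.45 ± 0.10 (adjusted p = 0.0257), and the groups overlapped for neither. Both calls ended when LF+Ex 1, HF+Ex 1, HF+Ex 2 or HF+Ex 3 was left out, with differences of 0.49 to 0.59 for Psmg2 and 0.44 to 0.51 for Psmd14 and adjusted p from 0.0502 to 0.0886. In these fits 58, 105, 102 and 59 of all genes were called, against 533 with all libraries. Without LF+Ex 2 Psmg2 alone of the 42 was called, with Psmd14 at 0.37 (adjusted p = 0.111), and 82 of all genes were. Without the 3 pancreatic libraries neither was called, at 0.51 (adjusted p = 0.109) for Psmg2 and 0.51 (adjusted p = 0.105) for Psmd14. Of all genes 33 were called there. Psmc6 came next, at 35.6, 33.7 and 34.9 RPKM in LF+Ex and 40.2, 44.3 and 43.0 in HF+Ex, a difference of 0.28 (adjusted p = 0.0607). In the other groups it stood at 40.5, 44.6 and 44.3 in LF, 43.4, 43.5 and 39.4 in LF+CR, 38.2, 44.9 and 44.0 in HF, and 45.2, 46.2 and 45.3 in HF+CR, so LF+Ex held the 3 lowest values of all. Over the 42 genes 31 were higher and the median was 0.08, as for all genes. With median-of-ratios scaling 18 were higher and the median was -0.02.

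Sums of cell type markers are given beside these results and were not tested. Of 7 macrophage markers 6 were measured, and they summed to 66.2 to 102 RPKM in LF+CR and 123 to 136 in HF+CR, and to 98.7 to 135 in LF+Ex and 180 to 204 in HF+Ex, with 0 of the 6 and 1 of the 6, Cd5l, called higher. Lymphocyte markers summed to 0.646 to 0.956 RPKM in LF+CR and 2.07 to 6.00 in HF+CR, and to 0.366 to 1.26 in LF+Ex and 1.82 to 5.57 in HF+Ex. Of the 3 lymphocyte markers tested, Cd79b was called higher in the first comparison and Nkg7 in the second. Of all 7, Cd8a and Ms4a1 were below 0.05 RPKM in every LF+CR library, and Cd3e, Cd3d, Cd8a and Ms4a1 in every LF+Ex library. The 7 stellate cell markers summed to 69.5 to 86.2 RPKM in LF+CR and 75.0 to 142 in HF+CR, and to 58.2 to 64.5 in LF+Ex and 101 to 123 in HF+Ex, with overlap under CR, where 0 of the 7 were called, and none under Ex, where Lrat was called higher. The hepatocyte markers summed to 48009 to 56791 RPKM in LF+Ex and 41912 to 45007 in HF+Ex, with Cps1, Fgb and Serpina1c, 3 of the 7, called lower. They summed to 49863 to 51661 RPKM in LF+CR and 48037 to 55235 in HF+CR, with Apoa1 and Serpina1c called higher and Cps1 and Trf lower. The 7 endothelial markers summed to 92.3 to 105 RPKM in LF+CR and 80.1 to 93.9 in HF+CR. In LF+Ex they summed to 81.4 to 87.9 RPKM and in HF+Ex to 80.3 to 96.8. Bile duct markers summed to 28.8 to 40.9 RPKM in LF+CR and 28.1 to 166 in HF+CR. In LF+Ex they summed to 19.2 to 28.5 RPKM and in HF+Ex to 33.0 to 56.7. No marker of these 2 lists was called in either comparison. The part of all these cells in the differences of Psmg2 and Psmd14 was not tested.

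**Figure D4:**
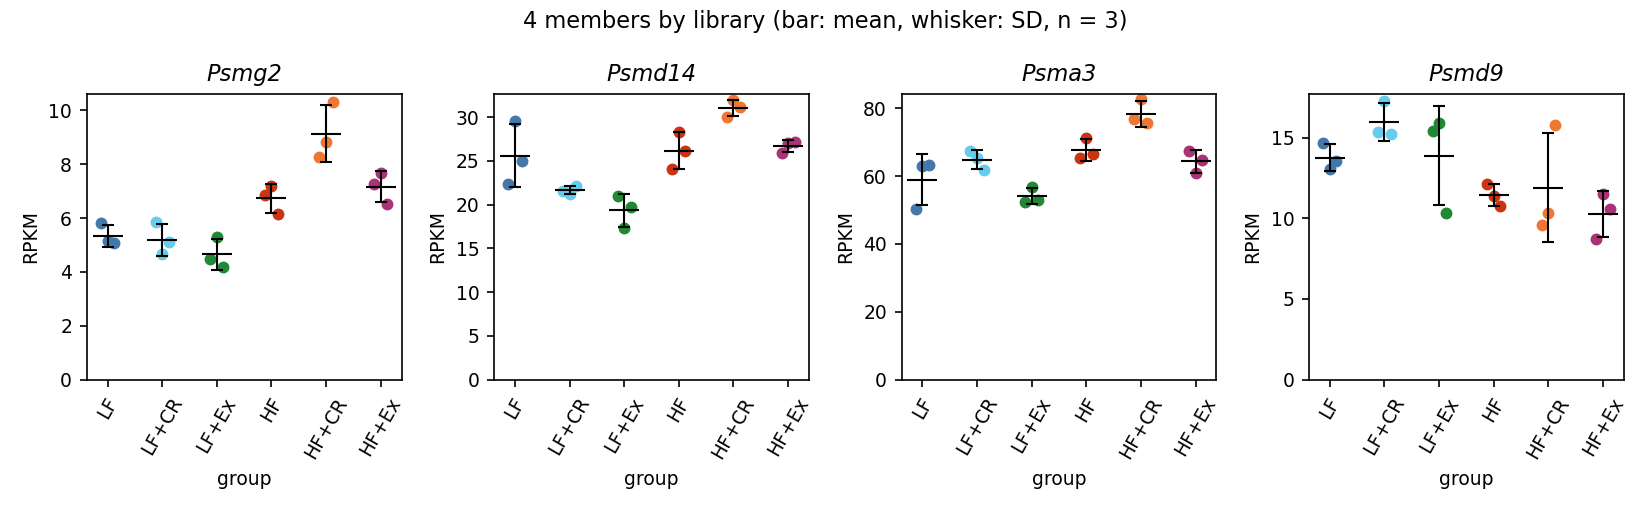
RPKM by library in the 6 groups for Psmg2, Psmd14, Psma3 and Psmd9, with a bar at the mean and whiskers of 1 SD (n = 3). For Psmg2 the 9 HF-diet libraries lie between 6.14 and 10.3 RPKM and the 9 LF-diet libraries between 4.19 and 5.84.

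A contrast of the HF with the LF diet over all 3 treatments, chosen after the data were seen, rests on 9 libraries a side. It called 5 of 42 genes, or 11.9%, where 23.7% of all genes were called, 14% higher and 9.67% lower. At an unadjusted p under 0.05 there were 10, or 23.8%, against 37.5%. Psmg2 rose by 0.51 ± 0.06 (adjusted p = 0.000247), Psmd14 by 0.33 ± 0.06 (adjusted p = 0.00177), Psma3 by 0.24 ± 0.06 (adjusted p = 0.00696) and Psma1, another alpha subunit, by 0.19 ± 0.06 (adjusted p = 0.0309). Psmd9, a chaperone of the cap's base, fell by 0.35 ± 0.10 (adjusted p = 0.0189).

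Psma3 stood at 50.2, 63.0 and 63.4 RPKM in LF, 67.4, 65.4 and 61.9 in LF+CR, 52.5, 56.9 and 53.1 in LF+Ex, 65.4, 71.3 and 66.6 in HF, 76.8, 82.7 and 75.7 in HF+CR, and 67.5, 60.8 and 64.7 in HF+Ex. Within each treatment the HF-diet libraries were above the LF-diet ones. Psma3 overlaps the noncoding gene 3110056K07Rik, and strand use in counting is not given, so reads of the pair cannot be told apart. Psmd9 stood at 14.7, 13.1 and 13.6 RPKM in LF, 15.4, 17.3 and 15.2 in LF+CR, 15.4, 15.9 and 10.4 in LF+Ex, 12.1, 11.4 and 10.8 in HF, 9.58, 10.3 and 15.8 in HF+CR, and 8.73, 11.5 and 10.6 in HF+Ex. It is lower on the HF diet in the untreated groups without overlap, and 1 library of HF+CR and 1 of LF+Ex cross the other diet's range. Without the pancreatic libraries Psmd9 was at -0.29 (adjusted p = 0.106) and Psma1 at 0.19 (adjusted p = 0.118), and 3 genes stayed called. Without LF 2, 8 proteasome genes were called, with Psma5, Psmd2 and Psme2 added. Of all genes, 1166 and 2564 were called in these fits, against 2453 with all libraries. Leaving out any of 9 single libraries took the adjusted p of Psma1 to 0.0526 to 0.0628.

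Caloric restriction itself called no proteasome gene on either diet. In LF+CR against LF, where limma called 6.5% of all genes, 0 of 42 passed and 5 had an unadjusted p under 0.05, or 11.9% against 22.4% of all genes. The median difference was 0.02, with 23 higher, against 0.00 for all genes. Psmd2 had -0.22 ± 0.09 (adjusted p = 0.162), Psmd4 -0.30 ± 0.12 (adjusted p = 0.163) and Psmg1 0.27 ± 0.12 (adjusted p = 0.208). Intervals lay within ±0.5 for 34 of the 42, and the widest, reaching -0.99 and 0.86, leave room for changes of that size. Without LF 2 Psme2 was called, and without LF 3 Psmd4 was. Of all genes, 512 and 860 were called in these fits, against 673 with all libraries. The 75 ribosomal protein genes had a median of 0.32 in the same comparison, with 6 called higher.

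In HF+CR against HF, where 1.4% of all genes were called, 0 of 42 passed and 3 had an unadjusted p under 0.05, or 7.14% against 14% of all genes. These were Psmg2, with 0.39 ± 0.11 (adjusted p = 0.112), Psmd14, with 0.24 ± 0.10 (adjusted p = 0.293), and Psma3, with 0.21 ± 0.10 (adjusted p = 0.339). For each of them all HF+CR libraries lay above all HF libraries. Intervals lay within ±0.5 for 39 of the 42.

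The interaction of CR with diet, the effect on HF minus the effect on LF, called none of the 42, against 1.02% of all genes, and 3 had an unadjusted p under 0.05, or 7.14% against 11.8%. Psmd14 had 0.47 ± 0.14 (adjusted p = 0.171), Psmg2 0.42 ± 0.16 (adjusted p = 0.285) and Psme2 -0.62 ± 0.29 (adjusted p = 0.411). A larger diet difference under CR than without it is therefore not shown for either called gene. Over both diets together, in a contrast added after the data were seen, CR called 0 of 42 against 7.18% of all genes, with 4 at an unadjusted p under 0.05, or 9.52% against 24.2%.

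Exercise against no treatment called no gene on either diet. In LF+Ex against LF, 0% of all genes passed limma's test, and 11 of the 42 had an unadjusted p under 0.05, or 26.2% against 9.11%. All but 1 of the 42 were lower, with a median of -0.17, but the median of all genes was -0.13. With median-of-ratios scaling the median of all genes was 0.00 and that of the 42 was -0.01, with 18 higher, and with quantile normalization it was -0.05, with 11 higher. Psmd14 had -0.38 ± 0.10 (adjusted p = 0.48), Psmc6 -0.30 ± 0.08 (adjusted p = 0.506) and Psma1 -0.36 ± 0.10 (adjusted p = 0.506), each below all LF libraries in all 3 LF+Ex libraries. Among the chaperones Psmg4 had the lowest value, -0.54, with an interval down to -1.09.

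In HF+Ex against HF, 0% of all genes were called and 3 of the 42 had an unadjusted p under 0.05, or 7.14% against 3.64%. They were Psmb1, with -0.30 ± 0.10, Psmd12, with -0.24 ± 0.09, and Psma5, with -0.26 ± 0.11, all at an adjusted p of 1. The median was -0.11, with 4 higher, against -0.02 for all genes, -0.07, with 6 higher, after median-of-ratios scaling, and -0.03, with 13 higher, after quantile normalization. In the contrast of Ex with no treatment over both diets, added after the data were seen, 0% of all genes and 0 of 42 were called, and 15 of 42 had an unadjusted p under 0.05, or 35.7% against 7.04%. None was higher, with a median of -0.14 against -0.08 for all genes. Median-of-ratios scaling moved this to -0.04 with 8 higher, and quantile normalization to -0.05 with 6 higher, each against 0.00 for all genes. The interaction of Ex with diet called none of the 42 and 0% of all genes. Its 3 smallest p were those of Psmd14, with 0.41 ± 0.14, Psmc6, with 0.31 ± 0.12, and Psmb1, with -0.27 ± 0.14, each at an adjusted p of 0.818, and 2 had an unadjusted p under 0.05, or 4.76% against 5.07%.

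**Figure D5:**
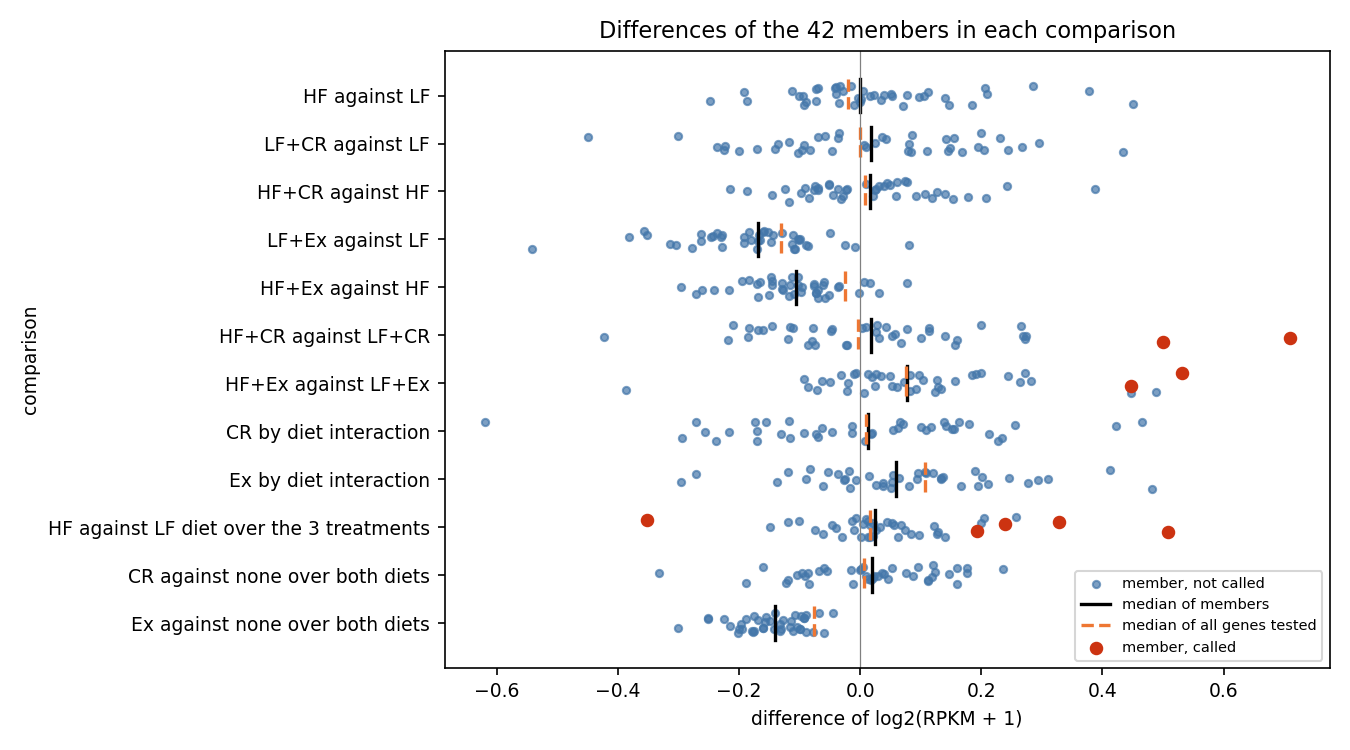
Difference in log2(RPKM + 1) of the 42 genes in 12 comparisons, 1 point per gene, with called genes in red, the median of the 42 as a solid line and that of all genes tested as a dashed line. Red points appear in the HF+CR against LF+CR and HF+Ex against LF+Ex comparisons and in the contrast of diets over the 3 treatments, and both exercise comparisons lie left of 0, at medians of -0.17 and -0.11.

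The sum over all 42 genes ran from 2200 to 2897 RPKM over the 18 libraries. It was 2593 ± 264 RPKM in LF, 2618 ± 139 in LF+CR, 2279 ± 71.8 in LF+Ex, 2597 ± 171 in HF, 2616 ± 143 in HF+CR and 2391 ± 43.6 in HF+Ex (SD, n = 3). The alpha ring summed to 590 ± 56.9 RPKM in LF, 586 ± 25.2 in LF+CR, 518 ± 1.71 in LF+Ex, 600 ± 37.4 in HF, 621 ± 49.3 in HF+CR and 557 ± 9.33 in HF+Ex. The base chaperones had their highest sum in LF+CR, 37.2 ± 2.93 RPKM, against 31.4 ± 2.87 in LF and 31.3 ± 4.72 in HF+CR. These sums were not tested.

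Genes around the proteasome were listed apart. Of 13 measured assembly and associated genes, the ubiquitin ligase Ubr4 fell by 0.53 ± 0.11 in HF against LF (adjusted p = 0.0455), and the deubiquitinase Usp14, which sits on the cap, rose by 0.53 ± 0.12 in HF+Ex against LF+Ex (adjusted p = 0.024), the only calls among them in the 9 comparisons. Over the 3 treatments the HF diet called 3 of the 13, a share near the 23.7% of all genes called in that contrast. Usp14 rose by 0.36 ± 0.07 (adjusted p = 0.00226), Ubr4 fell by 0.39 ± 0.06 (adjusted p = 0.000909), and Pomp, the maturation chaperone of the core, rose by 0.29 ± 0.06 (adjusted p = 0.00424). Pomp stood at 100 ± 8.21 RPKM on the LF diet and 123 ± 9.27 on the HF diet (SD, n = 9). CR over both diets called Txnl1, a thioredoxin of the cap, 0.40 ± 0.10 higher (adjusted p = 0.0288).

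Of the 16 regulators of proteasome transcription, Nfe2l1, the factor that drives subunit genes when the proteasome is inhibited, fell by 0.59 ± 0.16 in LF+CR against LF (adjusted p = 0.0448), from 29.4 ± 3.81 to 19.4 ± 4.30 RPKM (SD, n = 3). Rptor, a part of the growth kinase complex mTORC1, fell by 0.48 ± 0.12 there (adjusted p = 0.0238). No proteasome gene passed the test in that comparison. Nfya, a subunit of NF-Y, rose by 1.22 ± 0.25 in HF+Ex against LF+Ex (adjusted p = 0.0187). Its levels were near the floor, at 0.948, 0 and 0.230 RPKM in LF+Ex and 2.73, 1.38 and 2.45 in HF+Ex. In the same comparison Nfe2l2, the oxidative stress factor, had 0.60 ± 0.19 (adjusted p = 0.0777). Among 19 ubiquitin, shuttle and p97 genes, the shuttle Ubqln4 fell by 0.68 ± 0.14 in HF+CR against LF+CR (adjusted p = 0.00631). Among the 13 immunoproteasome and class I presentation genes, Psmb9, Tap1 and Tap2 were called higher in both HF+CR against LF+CR and HF+Ex against LF+Ex. Tap1, a peptide transporter subunit, fell by 1.29 ± 0.18 in LF+CR against LF (adjusted p = 0.00112), and no other gene of that list was called there.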

How the data were processed

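The authors deposited RPKM for each RefSeq transcript, made with TopHat 1.4.1 and Cufflinks 1.3.0 on mm10, per the submitters' processing notes. Annotation, strand use and read totals are not given in the sources used here, and no counts were used. The sample files repeated the values of the table. Of 30582 rows, 29438 got a symbol from RefSeq (GRCm38.p6), 179 from GENCODE, and 965 kept their identifier. The row with the highest mean stood for each of 3992 genes with several rows, among them Psmd2, Psmd10, Psme2 and Psmg4.

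Genes reaching 1 RPKM in 3 or more libraries were fitted as log2(RPKM + 1) in R 4.3.3 with limma 3.58.1, using 1 mean per group, a trend of variance with level and 12 residual degrees of freedom. Tests were two-sided. A gene was called at an adjusted p under 0.05 (Benjamini-Hochberg, 10358 genes), and every adjusted p comes from limma. Fitting was tested on simulated data. There were 9 comparisons and 3 pooled contrasts added after the data were seen, and 29 alternative settings were tried.

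The members, the gene lists and the rule for named genes were chosen with earlier results of these data known. The rule names every called member, or the 3 with the smallest p where none was called, and always the catalytic subunits, activators, ATPases and chaperones, with list genes that were called, at most 4 a comparison. Groups come from the sample labels. Motifs were searched in RefSeq promoters. Some called genes of the lists are not reported here.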

Additional observations from a re-analysis of the deposited data

How the results depend on the processing

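No called difference changed direction under the 29 alternatives, but medians over the 42 genes did with median-of-ratios scaling, from 0.08 to -0.02 in HF+Ex against LF+Ex and from 0.06 to -0.07 in the interaction of Ex with diet. The count of called proteasome genes stayed at 0 in all of them for HF against LF, HF+CR against HF, LF+Ex against LF, HF+Ex against HF and both interactions. Without the 3 pancreatic libraries it went from 2 to 1 in HF+CR against LF+CR, from 2 to 0 in HF+Ex against LF+Ex and from 5 to 3 for the diets over the 3 treatments. Of all 10358 genes, the number called went from 1012 to 131, from 533 to 33 and from 2453 to 1166. Without the bile duct libraries LF 2 and HF+CR 3 the count of proteasome genes was 1 (Psme2) in LF+CR against LF and 8 for the diets over the 3 treatments. There 739 and 2681 of all genes were called. Leaving out 1 library at a time gave 0 to 1 proteasome genes in LF+CR against LF, 2 to 4 in HF+CR against LF+CR, 0 to 2 in HF+Ex against LF+Ex and 4 to 8 for the diets over the 3 treatments. In HF+Ex against LF+Ex, the fits that lost a call had 58 to 105 of all genes called. The cause of these changes was not tested. Fits that leave libraries out also rest on fewer libraries, and the part of that was not tested either. Replicate numbers share only a number: same-numbered libraries of different groups had a median correlation of deviations of 0.004 over 45 pairs, and 6 of 18 libraries correlated best with their own number. With a replicate block the count was 2 in HF+CR against LF+CR, 2 in HF+Ex against LF+Ex, 6 for the diets over the 3 treatments and 0 in the other comparisons. Of all genes, 963, 455 and 2377 were called in the 3 named comparisons. With the read depth unknown, no counting interval can be given. At the rough depth estimate the fewest reads fall on Psmg4, Psmg2 and Psmd10.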
